A study of Mus musculus with 6 samples.

Results

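The release of glucagon-like peptide-1 (GLP-1) from the intestinal L-cell is adjusted by hormones and neurotransmitters, and 10 receptors through which they act are described here in the mGLUTag line: GIPR, GLP1R, GCGR, INSR, IGF1R, LEPR, SSTR5, CHRM3, MC4R and GALR1. They were taken as all probes that the array table lists under one of these gene symbols, which gave 14 of 45281 probes, or 10 of the 28902 gene names of the array. INSR, IGF1R, LEPR and SSTR5 had 2 probes each, and the other 6 receptors had 1. mGLUTag is an immortalized murine L-cell line. No transgene, knockdown or receptor ligand is named for any sample. All cells had been kept in low serum, synchronized with forskolin (an activator of adenylyl cyclase, the enzyme that makes cAMP) and returned to growth medium. Total RNA was taken at 4 h or 16 h, with 3 samples at each time, and hybridized to 1 array per sample. The study had selected these times for the peak and trough of the clock gene Arntl. Both groups had received forskolin, so an unsynchronized state was not measured.

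The receptors fall into 3 signalling families. GIPR, GLP1R, GCGR and MC4R couple mainly to the stimulatory G protein Gs and raise cAMP, which drives secretion in L-cells, while CHRM3 couples to Gq and releases calcium from intracellular stores. SSTR5 and GALR1 couple to inhibitory Gi/o proteins and lower cAMP. INSR and IGF1R are receptor tyrosine kinases that signal through phosphatidylinositol 3-kinase, and LEPR is a cytokine receptor that signals through JAK2 and STAT3.

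The 4 h arrays were brighter than the 16 h arrays, with a mean intensity over all probes of 322 ± 31.3 (SD, n = 3) against 236 ± 17.0 (SD, n = 3). Of the 14941 probes that exceeded background on all 6 arrays (the noise limit defined in the next paragraph), 98.2% were brighter at 4 h, with a median log2 intensity ratio of 0.55. Raw intensities below are therefore used to ask whether a receptor was above background on an array, and the time points are compared on quantile-normalized log2 values, which report each probe relative to the rest of the array. If most transcripts moved together, that scale would not show it. In RNA from whole cultures, fewer cells with a transcript and less of it per cell cannot be told apart. Gcg, which encodes proglucagon, the precursor of GLP-1, was above the limit on every array (19565 ± 1363 at 4 h and 11924 ± 894 at 16 h), as were most of the L-cell and endocrine markers: 10 of 12 lay above the limit on 3 or more arrays, Pcsk1 and Pyy being the exceptions. Of the enterocyte and immune markers, 0 of 4 and 0 of 5 did. Of the goblet and Paneth cell markers 1 of 3 did (Tff3), and of the fibroblast markers 1 of 5 (Col1a1).

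To determine which receptors were expressed above background, each intensity was compared with the noise limit of its array, the 99th percentile of the array's below-zero values with their sign turned (9.2 to 14 intensity units). GIPR, IGF1R and SSTR5 were above the limit on all 6 arrays at 1 probe each. The second probes of IGF1R and SSTR5 were above it on 5 arrays. The remaining 7 receptors were above it on fewer than 3 arrays: CHRM3 on 2, MC4R on 1, INSR on 1 at the better of its probes, and GLP1R, GCGR, LEPR and GALR1 on none. In all, 5 of the 14 receptor probes (35.7%) were above the limit on 3 or more arrays, against 38.4% of all probes of the array. With a looser limit, the 95th percentile (7.2 to 11.1), CHRM3 was above background on 3 arrays and the count of receptors rose from 3 to 4. With the strictest, the largest below-zero value (13.9 to 20.6), GIPR, IGF1R and SSTR5 still passed on 3 or more arrays.

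**Figure D1:**
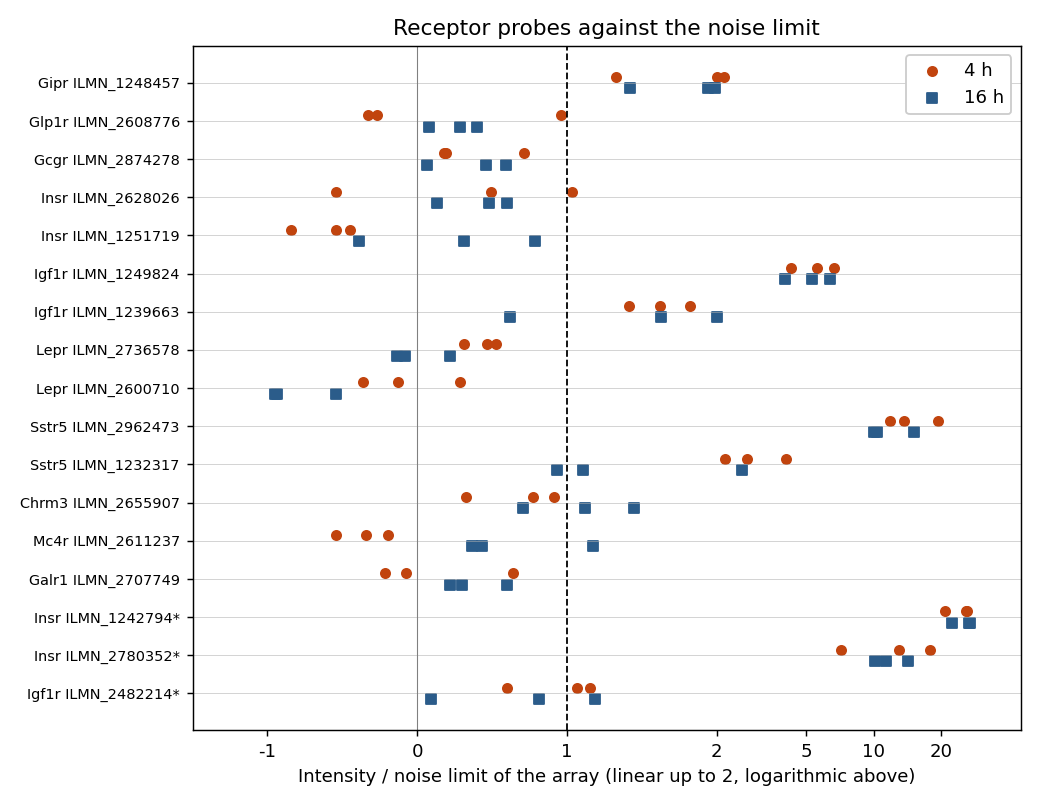
Intensity of each receptor probe divided by the noise limit of the same array (horizontal axis, linear up to 2 and logarithmic above), with one point per array at 4 h (circles) and 16 h (squares). The dashed line is the limit, and asterisks mark the 3 probes listed under an older gene name. The Gipr probe, the brighter probes of Igf1r and Sstr5 and the older-name probes of Insr lie to the right of the limit on all 6 arrays. The dimmer Igf1r and Sstr5 probes each have 1 array to its left, the older-name Igf1r probe has 3, and the probes of Glp1r, Gcgr, Lepr and Galr1 have all 6.

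GIPR, the receptor for glucose-dependent insulinotropic polypeptide, which stimulates GLP-1 release in rodents, had 1 probe (ILMN_1248457). Its intensity was 28.1, 25.0 and 16.2 at 4 h and 19.5, 20.4 and 13.1 at 16 h. Each value was above the noise limit of its array, but only by 1.33 to 2.16 times, and the ranges of the time points overlapped. With the strictest limit, 4 of the 6 arrays remained above it. Normalized log2 intensities averaged 6.36 ± 0.11 for the 4 h arrays and 6.39 ± 0.05 for the 16 h arrays (SD, n = 3 per time point, here and in what follows). The difference, 4 h minus 16 h, was -0.03 (SE 0.078, 95% confidence interval -0.21 to 0.15, limma adjusted p = 0.984). It was 0.024 without 4 h replicate 3, 0.060 with median scaling and 0.15 with no between-array normalization, so no direction is read from it, and -0.15 without background correction. The interval is the resolution of these arrays for a probe this near the limit, where the offset added before the log transform also shrinks differences.

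The other receptors that couple to Gs stayed at background. GLP1R, the receptor for GLP-1 itself, read 13.4, -3.1 and -4.0 at 4 h and 2.8, 0.8 and 3.7 at 16 h, so that its highest value fell just short of the limit of that array. GCGR, the glucagon receptor, read 10, 2.2 and 2.2 at 4 h and 5.8, 4.8 and 0.6 at 16 h. MC4R, the melanocortin receptor, read -4.8, -6.3 and -2.4 at 4 h and 3.6, 12.3 and 4.0 at 16 h. Values of MC4R were all below 0 at 4 h and all above 0 at 16 h, with the single value of 12.3 above the limit. No fold change is quoted for a receptor that passed the limit on 0, 1 or 2 arrays, since most of its values lay within the range of the noise.

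CHRM3, a muscarinic receptor for acetylcholine, was the nearest to the limit of the receptors that did not pass. Its probe read 12.8, 3.8 and 9.4 at 4 h and 6.9, 11.8 and 13.3 at 16 h. These values overlapped between the time points, and both arrays on which it was above the limit were 16 h arrays.

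SSTR5, the somatostatin receptor that restrains GLP-1 release, was above the limit at both of its probes, and the probes moved together over the arrays. The brighter probe (ILMN_2962473) read 191.6, 137.2 and 234.6 at 4 h and 148.6, 109.1 and 92.0 at 16 h, 10 to 19.2 times the limit. The dimmer probe (ILMN_1232317) read 38.2, 25.1 and 49.8 at 4 h and 25.5, 11.6 and 8.6 at 16 h, where the last value was below the limit of its array. Over the 6 arrays the Pearson correlation of the probes was 0.99 in intensity and 0.86 in normalized log2 intensity, as a description, since the arrays share the brightness difference between the time points in the first case. The highest arrays at both probes were 4 h replicates 3 and 1, and 4 h replicate 2 lay below 16 h replicate 1, so the time points overlapped.

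After normalization SSTR5 did not pass the test at either probe. The brighter probe had a log2 intensity of 7.76 ± 0.16 at 4 h and 7.69 ± 0.17 at 16 h, a difference of 0.07 (SE 0.11, 95% confidence interval -0.18 to 0.32, adjusted p = 0.977). At the dimmer probe the values were 6.55 ± 0.12 and 6.32 ± 0.17, a difference of 0.22 (SE 0.10, 95% confidence interval -0.0033 to 0.45, adjusted p = 0.919). The dimmer probe gave 0.37 with an offset of 16 and 0.90 without background correction. The difference of the brighter probe was -0.019 without 4 h replicate 3 and 0.17 without 16 h replicate 1. It was 0.41 with median scaling and 0.50 with no between-array normalization.

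The values of the brighter SSTR5 probe went with another feature of the arrays, the signal of the 18S ribosomal RNA probes. The mean log2 signal of the 18S probes was 8.50, 6.91 and 10.57 on the 4 h arrays and 9.24, 7.71 and 7.02 on the 16 h arrays, so that 4 h replicates 1 and 3 and 16 h replicate 1 stood above the rest. The brighter SSTR5 probe was 7.84 ± 0.14 on these 3 arrays and 7.62 ± 0.05 on the other 3, a difference of 0.22 with no overlap. Within the arrays of high 18S signal the 4 h minus 16 h difference was -0.08 (2 arrays against 1), and within those of low signal it was 0.07 (1 against 2), values that carry no test. With the 18S side as a block it was -0.0024 (SE 0.092, adjusted p = 0.999). The dimmer probe overlapped between the sides, its 4 h minus 16 h difference was 0.061 within the high side and 0.26 within the low side, and it was 0.16 with the block (SE 0.088, adjusted p = 0.899). Across the array, 20.2% of probes that exceeded background on every array did not overlap between the same sides. The arrays were divided in this way with their values in view, and the part of 18S signal in the SSTR5 values was not tested further.

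**Figure D2:**
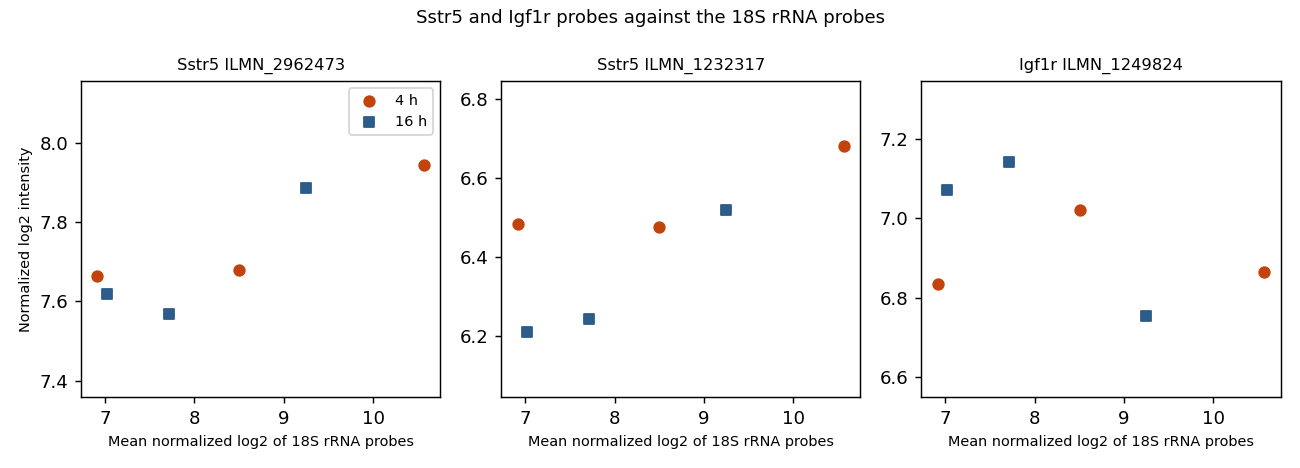
Normalized log2 intensity of the SSTR5 probes and the brighter IGF1R probe (vertical axis) against the mean normalized log2 signal of the 18S ribosomal RNA probes (horizontal axis), one point per array. The 3 arrays of high 18S signal, 2 from 4 h and 1 from 16 h, hold the 3 highest values of SSTR5 ILMN_2962473, while the IGF1R values of the sides overlap.

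GALR1, the galanin receptor that inhibits secretion, stayed at background at its single probe. It read -3.0, -0.9 and 7.8 at 4 h and 2.9, 2.3 and 5.5 at 16 h, below the limit on every array and with overlap between the time points.

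INSR, the insulin receptor, gave different answers at different probes. The probes listed as INSR were at background. ILMN_2628026 read 6.9, 12 and -6.6 at 4 h and 4.7, 6.3 and 1.2 at 16 h, above the limit on 1 array, and ILMN_1251719 read -7.6, -5.2 and -10.3 at 4 h and 7.7, 3.3 and -3.6 at 16 h, above it on none. The RefSeq gene table gives D630014A15RIK as an older name of Insr, and the array lists 2 further probes under it, both far above the limit on all 6 arrays. These probes are outside the selection by symbol, and they were added with their values in view. Their assignment to INSR rests on the name alone, since no probe sequence was at hand to check it, and the same holds for the older-name probe of IGF1R.

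The older-name probes of INSR were read as follows. ILMN_1242794 gave 361.9, 239.5 and 318.4 at 4 h and 263.0, 278.8 and 205.6 at 16 h, 20.7 to 26.8 times the limit. ILMN_2780352 gave 180.6, 82.8 and 216.2 at 4 h and 139.2, 119.1 and 92.9 at 16 h, 7.15 to 17.7 times the limit. Raw values overlapped between the time points at both probes, with 4 h replicate 2 the lowest 4 h array in each. If these probes are counted as INSR, 4 of the 10 receptors were above background on 3 or more arrays.

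After normalization the older-name INSR probe ILMN_1242794 had a log2 intensity of 8.31 ± 0.08 at 4 h and 8.53 ± 0.04 at 16 h, with no overlap. The difference was -0.21 (SE 0.070, 95% confidence interval -0.37 to -0.05), which did not pass after adjustment (adjusted p = 0.744). The other, ILMN_2780352, gave 7.56 ± 0.33 and 7.70 ± 0.10, a difference of -0.13 (SE 0.15, 95% confidence interval -0.46 to 0.20, adjusted p = 0.965). Both differences were above 0 with median scaling (0.16 and 0.20) and with no between-array normalization (0.25 and 0.29), settings that placed the median detected probe 0.30 and 0.39 above 0. Relative to that median both lay below 0, at -0.14 and -0.11, but subtracting it is itself a normalization between arrays. Values quoted for these settings elsewhere in the text hold the same shift. The second probe turned to 0.039 without 4 h replicate 2 and was -0.25 with the 18S block, and its mean was 0.27 higher on the arrays of high 18S signal than on the others, with overlap. The probes correlated at 0.84 in intensity and 0.45 in normalized log2 intensity over the 6 arrays.

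**Figure D3:**
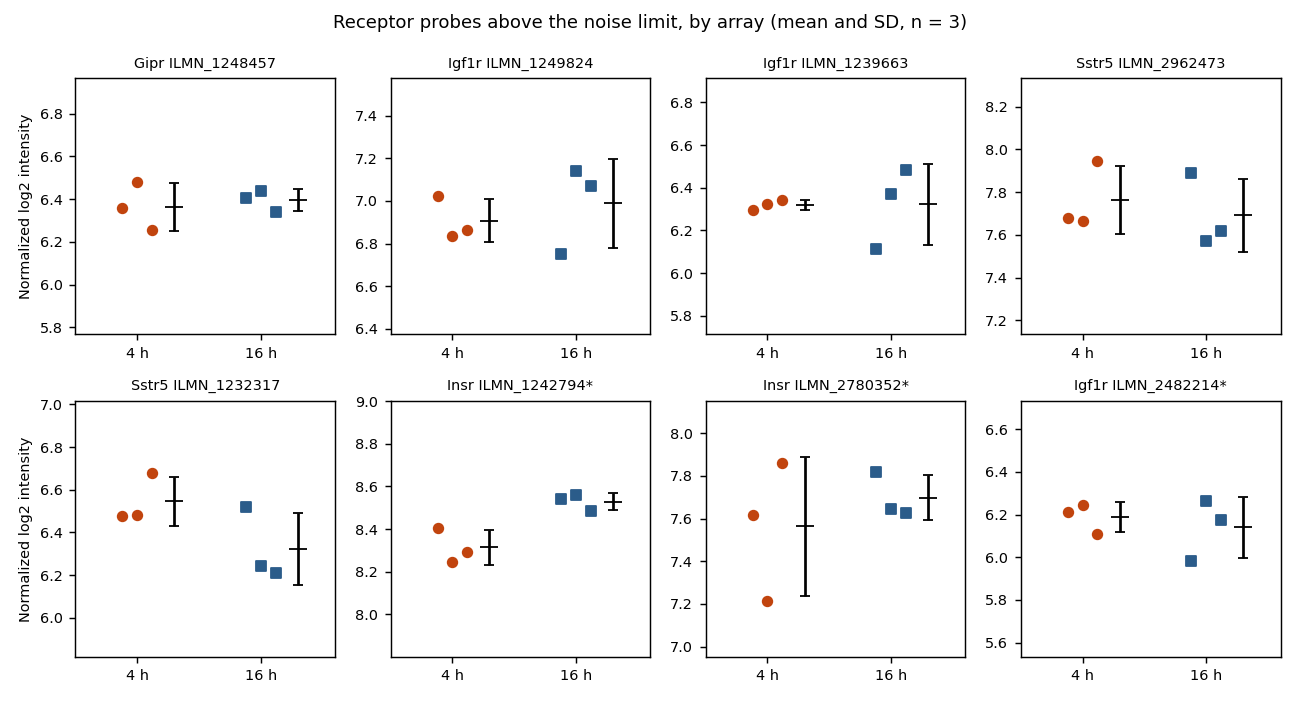
Normalized log2 intensity (vertical axis) of each receptor probe that exceeded background on at least 3 arrays, one point per array at 4 h and 16 h, with the mean and SD of each time point (n = 3). Asterisks mark probes listed under an older gene name, and the time points overlap in every panel except Insr ILMN_1242794.

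IGF1R, the receptor for insulin-like growth factor 1, was above the limit at both probes listed under its symbol. The brighter (ILMN_1249824) read 93.1, 49.5 and 67.9 at 4 h and 39.4, 67.1 and 49.0 at 16 h, 4.02 to 6.65 times the limit. The dimmer (ILMN_1239663) read 22.7, 16.4 and 22.2 at 4 h and 6.1, 17.1 and 18.5 at 16 h, with 16 h replicate 1 below the limit. Their normalized values had a Pearson correlation of 0.72 over the 6 arrays, and 16 h replicate 1 was the lowest array at both. The time points overlapped at each probe.

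The normalized log2 intensity of the brighter IGF1R probe was 6.91 ± 0.10 at 4 h and 6.99 ± 0.21 at 16 h. The difference was -0.08 (SE 0.11, 95% confidence interval -0.33 to 0.16, adjusted p = 0.971), and at the dimmer probe it was -0.0019 (SE 0.096, adjusted p = 0.999). A probe listed under the older name D930020L01 read 16.2, 12.4 and 7.3 at 4 h and 0.9, 12.5 and 7.5 at 16 h and was above the limit on 3 arrays. Its difference was 0.05 (SE 0.087, adjusted p = 0.980). The brighter probe gave 0.16 with median scaling and 0.25 with no between-array normalization, and it gave -0.20 without 16 h replicate 1 and -0.0044 without 16 h replicate 2.

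LEPR, the leptin receptor, was at background at both probes. ILMN_2736578 read 7.4, 3.6 and 5.7 at 4 h and -0.8, -1.4 and 2.0 at 16 h, and ILMN_2600710 read -5.1, 3.3 and -1.6 at 4 h and -5.3, -10 and -8.6 at 16 h. At both probes the 4 h values lay above the 16 h values, but the noise limit was reached on no array at either. Leprot, the leptin receptor overlapping transcript, shares its first exons with LEPR and encodes a different protein. It was listed as OBRGRP and read 691.0, 582.6 and 723.5 at 4 h and 505.0, 532.2 and 448.8 at 16 h. Its normalized difference was -0.10 (SE 0.067, adjusted p = 0.949), and it was 0.30 with median scaling and 0.39 with no between-array normalization.

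A probe at background did not mean that its gene was at background elsewhere on the array. Among 3915 genes with several probes under their symbol, of which the brightest was above the limit on all 6 arrays, 43.3% had another probe that was above it on none. Of the 7028 other probes of these genes, 33.2% were above the limit on none. The receptors with 1 probe at background, GLP1R, GCGR, CHRM3, MC4R and GALR1, have no further reading in this table. For these and for LEPR the data give no detection at this sensitivity, not absence.

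To compare the time points over all members, the 14 receptor probes were read from the fit to the whole array. By limma with Benjamini-Hochberg adjustment, 0 of 14 were called, against 0.00883% of all 45281 probes (2 higher and 2 lower at 4 h). At an unadjusted p under 0.05 there were 3 of 14 (MC4R, LEPR ILMN_2600710 and INSR ILMN_1251719), against 5.42% of all probes. The time points did not overlap at 4 of the 14 (28.6%), against 10.9% of all probes: both LEPR probes were higher at 4 h, and MC4R and INSR ILMN_1251719 were lower. None of these 4 was above the noise limit on more than 1 array. Among the 5 receptor probes above the limit on 3 or more arrays, 0 had an unadjusted p under 0.05 and 0 were free of overlap. The median normalized change over the 14 probes was -0.02, and over all probes it was 0.00047. For a single probe, the smallest two-sided p that an exact permutation test of 3 arrays per time point allows is 0.1.

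**Figure D4:**
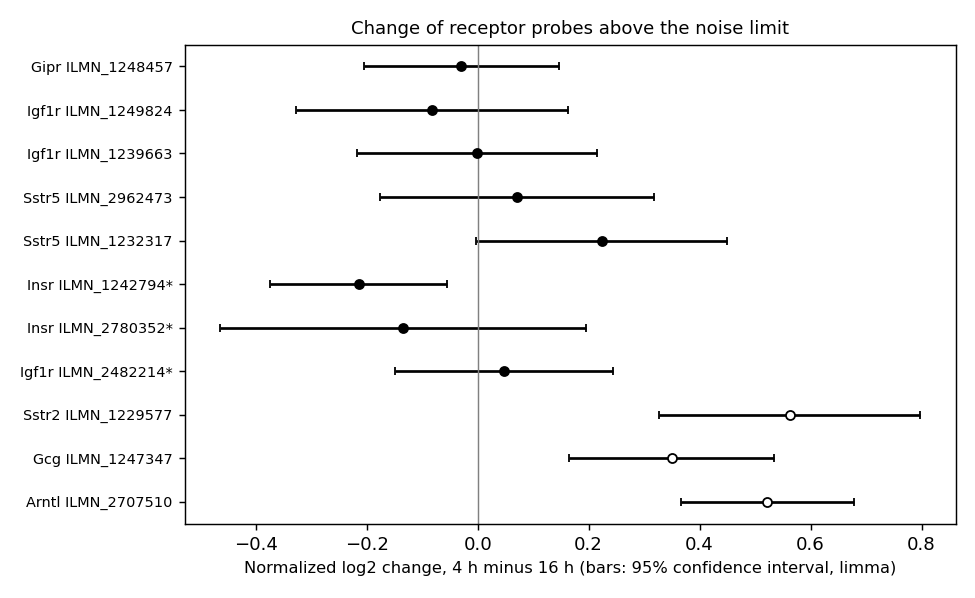
Normalized log2 change, 4 h minus 16 h, with its 95% confidence interval from limma, for receptor probes that exceeded background on at least 3 arrays (filled) and for Sstr2, Gcg and Arntl (open). Asterisks mark probes listed under an older gene name. The intervals of the receptor probes include 0, except at Insr ILMN_1242794 (-0.37 to -0.05).

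Arntl, which encodes the clock factor BMAL1, was measured as the control for the time points. It read 127 ± 24.8 at 4 h and 43.5 ± 6.31 at 16 h, with no overlap and a normalized change of 0.52 (SE 0.069, adjusted p = 0.138).

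Close relatives of the receptors were mostly at background as well. Of 22 related receptors listed (further receptors for somatostatin, acetylcholine, galanin and melanocortin, the glucagon family, Igf2r and Insrr), 21 had a probe and 3 (Sstr2, Igf2r and Galr3) were above the limit on 3 or more arrays, 14.3% against 40.6% of all genes. Sstr2, another somatostatin receptor that couples to Gi/o, read 226.0, 228.9 and 267.3 at 4 h and 86.1, 110.4 and 84.6 at 16 h at ILMN_1229577. Every 4 h value of Sstr2 was above every 16 h value, and the normalized log2 intensity was 8.05 ± 0.17 and 7.48 ± 0.13, a difference of 0.56 (SE 0.10, adjusted p = 0.252). The difference was positive in every setting tried and passed the test with median scaling (0.89) and with no between-array normalization (0.98). Those settings called 832 and 2308 of all probes higher at 4 h and 0 lower. The other Sstr2 probe, ILMN_3106619, was above the limit on no array, and the average of both probes gave 0.24 (adjusted p = 0.561). Igf2r, which takes up insulin-like growth factor 2 for degradation, read 264 ± 71.9 at 4 h and 172 ± 56.9 at 16 h and had a change of 0.056 (SE 0.18, adjusted p = 0.989). Galr3, a galanin receptor, was above the limit on 3 arrays and differed by -0.10 (adjusted p = 0.962). This value was -0.011 without 4 h replicate 3 and -0.18 without 16 h replicate 2. It was -1.02 without background correction and 0.022 with no between-array normalization.

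Among 13 genes for ligands of these receptors, 3 (Gcg, Gal and Cort) were above the limit on 3 or more arrays, 23.1% against 40.6% of all genes. Cort, which encodes cortistatin, had a change of -0.038 (SE 0.16, adjusted p = 0.994) at the brighter of its probes, with overlap. Gcg, whose product is cleaved to the ligands of GLP1R and GCGR, had a normalized change of 0.35 (SE 0.082, adjusted p = 0.461), with no overlap. It was 0.62 with median scaling and 0.71 with no between-array normalization, and 0.18 with linear scaling. The former pair passed the test, in settings that called 832 and 2308 of all probes higher at 4 h and 0 lower. Gal, which encodes the GALR1 ligand galanin, read 61.5 ± 6.46 at 4 h and 57.1 ± 5.02 at 16 h and had a change of -0.23 (SE 0.081, adjusted p = 0.814), which was 0.089 with no between-array normalization.

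Downstream of the G protein-coupled receptors, most signalling genes were above background and 0 were called. Of all 28902 genes, 40.6% were above the limit on 3 or more arrays, and 1 was called higher and 2 lower at 4 h. Of 20 genes for Gs, adenylyl cyclases and cAMP effectors, 12 were above the limit on 3 or more arrays, 4 with a change above 0 and 8 below, with a median of -0.04 against 0.0002 over all genes above the limit. Adcy2, an adenylyl cyclase, had a change of 0.20 (SE 0.095, adjusted p = 0.919), and Adcy6, another, had -0.14 (SE 0.099, adjusted p = 0.950). The Adcy6 value ranged from -0.22 to -0.064 when single arrays were left out and was 0.15 with median scaling. Of 19 genes for Gi/o and Gq coupling, 14 were above the limit, 5 with a change above 0 and 9 below, with a median of -0.01. Gnao1, the alpha subunit of Go, had 0.16 (SE 0.093, adjusted p = 0.937), and Itpr2, an inositol trisphosphate receptor that releases calcium, had -0.13 (SE 0.069, adjusted p = 0.920). For Itpr2 the average of the gene's probes gave -0.0054, median scaling gave 0.026, and values without background correction gave -0.40. Gnao1 was 0.046 as an average of its probes.

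Most genes listed for signalling downstream of INSR, IGF1R and LEPR were likewise above background. In insulin and IGF-1 signalling, 22 of 26 genes with a probe were above the limit (84.6%), against 40.6% of all genes. Of the 22, 11 had a change above 0 and 11 below, and 0 were called. Over all 28902 genes, 1 was called higher at 4 h and 2 lower. Pik3r3, a regulatory subunit of phosphatidylinositol 3-kinase, had a change of 0.36 at one probe (SE 0.074, adjusted p = 0.363) and 0.24 at another (SE 0.088, adjusted p = 0.830), without overlap at either. Rictor, a component of the mTORC2 complex, had -0.23 (SE 0.071, adjusted p = 0.718) at the only one of its 4 probes that was above the limit on 3 or more arrays, and the average of all 4 probes gave -0.0094. The 4 genes that did not pass included Akt1, Akt2 and Grb2, which are expressed in most cells. Of 6 IGF binding proteins, only Igfbp3 was above the limit on 3 or more arrays, with 0.29 (SE 0.12, adjusted p = 0.901) at one probe and 0.061 (SE 0.16, adjusted p = 0.984) at another. In leptin signalling, 8 of 9 genes were above it, with 4 changes on each side of 0 and 0 called. Leprotl1, a relative of Leprot, had 0.15 (SE 0.093, adjusted p = 0.942). It was 0.070 without 4 h replicate 3, 0.55 with median scaling and 0.64 with no between-array normalization. Stat3, the transcription factor activated by LEPR, had -0.32 (SE 0.21, adjusted p = 0.947). The Stat3 value rested on 16 h replicate 2, which read 247.5 against 96.7 and 119.4 on the other 16 h arrays: it was -0.069 without that array and -0.56 without 16 h replicate 1.

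Of 15 genes with a probe for desensitization and accessory proteins of receptors, 11 were above the limit (73.3%), against 40.6% of all genes. Of the 11, 6 had a change above 0 and 5 below, with a median of 0.01. There were 0 called, against 1 higher and 2 lower of all 28902 genes. Rgs4, which speeds the shutdown of Gi/o and Gq signals, had 0.23 (SE 0.075, adjusted p = 0.739). Arrb2, which encodes beta-arrestin 2 and uncouples receptors from G proteins, had -0.18 (SE 0.10, adjusted p = 0.924), which ranged from -0.28 to -0.11 when single arrays were left out and was 0.22 with median scaling. Among the L-cell and endocrine markers, Insl5, a peptide hormone gene of distal L-cells, read 302 ± 62.2 at 4 h and 97.3 ± 15.3 at 16 h and had 0.77 (SE 0.16, adjusted p = 0.369). Neurod1, an endocrine transcription factor, had -0.35 (SE 0.12, adjusted p = 0.800), with overlap between the time points, and 0.051 with median scaling.

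For each receptor above the limit on all arrays, the genes with the most similar pattern over the 6 arrays were sought among 10397 genes above it on all 6. They were Ninj1 (Pearson 0.994) and Tmem192 (0.993) for GIPR, Nek8 (0.996) and Ints6 (0.989) for IGF1R, and Stx7 (0.986) and Arf6 (0.985) for SSTR5. Correlations above 0.9 were found for 45 genes with GIPR (0.43%), 51 with IGF1R (0.49%) and 138 with SSTR5 (1.33%). The share that unrelated genes would reach over 6 arrays was not tested, so no likeness is read from these values.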

How the data were processed

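RNA from 6 samples of synchronized mGLUTag cells (3 at 4 h and 3 at 16 h) was measured on a mouse Illumina BeadChip, 1 array per sample. The authors deposited 1 linear intensity per probe and array, with background subtracted and no normalization between arrays, so 31.2% to 34.0% of an array's values lay below 0. Detection p-values, slides and scanner settings were not given in the sources used here. Independent cultures are not named for the replicates, so p-values measure the spread between these samples, which may be technical.

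Background was modelled with normexp (offset 50). After quantile normalization and log2 transformation, time point was fitted as the only term over all 45281 probes with limma 3.58.1 in R 4.3.3 (lmFit, eBayes). Benjamini-Hochberg adjustment covered the two-sided p-values of every probe, with a threshold of 0.05. Changes are 4 h minus 16 h on this scale. The offset shrinks them at probes well above the limit too, so they are not raw fold changes. Sstr2, for instance, had 0.56 here, 0.67 with an offset of 16 and 0.79 without background correction. The number of arrays limits the precision.

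The noise limit is defined in the text, and no change is quoted for genes that passed it on fewer than 3 arrays. Probe symbols were matched to a RefSeq table (GRCm38.p6), used for names only: 79.0% matched, 61.3% by symbol and 17.7% by an older name. The probe with the highest mean log2 value stood for its gene. The receptors, gene lists and tests were chosen with earlier results of these data known. Named were all receptor probes, from each list the gene above the limit with the smallest p in each direction (the rule allowed further ones), the genes most like each receptor, Gcg and Arntl. Leprot, Cort, Akt1, Akt2, Grb2, older-name probes, further probes of named genes and the 18S division were chosen after values were seen.

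Alternatives were an offset of 16, no background correction (with a floor of 1), no between-array normalization, median scaling, cyclic loess, linear scaling (trimmed mean), a filter at the noise limit, trend and robust variance, other noise limits, the average of a gene's probes, a replicate block, an 18S block and leaving out each array.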

Additional observations from a re-analysis of the deposited data

How the results depend on the processing

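In every setting fitted over single probes, 0 receptor probes were called. Fits over all probes had 1 to 4 receptor probes at an unadjusted p under 0.05, and the filter at the noise limit left 0. The number of probes called over the whole array depended on the setting. Against 2 higher and 2 lower at 4 h, limma gave 19 higher and 10 lower without background correction, 2308 and 0 when arrays were not normalized to each other, 832 and 0 with median scaling, 0 and 2 with cyclic loess, and 1 and 0 with trend and robust variance. It gave 0 and 0 with an offset of 16 and with the filter at the noise limit, where 2486 and 1028 probes had an unadjusted p under 0.05. Leaving out each array gave 0 to 0 in both directions, with 1849 to 3219 probes at an unadjusted p under 0.05. Without normalization between arrays and with median scaling the median detected probe was shifted by 0.39 and 0.30.

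In these settings, without normalization between arrays first, the sign turned for Gipr (0.15 and 0.060), Insr ILMN_1242794 (0.25 and 0.16), Insr ILMN_2780352 (0.29 and 0.20), Igf1r (0.25 and 0.16), Leprot (0.39 and 0.30), Gal (0.089 and 9.8e-05), Adcy6 (0.24 and 0.15), Itpr2 (0.11 and 0.026), Rictor (0.25 and 0.17), Stat3 (0.094 and 0.0053), Arrb2 (0.30 and 0.22) and Neurod1 (0.14 and 0.051). Galr3 turned to 0.022 in the first setting only. Relative to the median detected probe, all 25 of these values had the sign they had after quantile normalization. A probe's relative value is the same in both settings, and subtracting the median is itself a normalization. The signs are therefore no independent check, and Leprot lay at only -0.0022. Sstr5 ILMN_2962473 turned to -0.0024 with the 18S block. Leaving out each array gave ranges of -0.088 to 0.024 for Gipr (above 0 without 4 h replicate 3), -0.019 to 0.17 for Sstr5 ILMN_2962473 (below 0 without 4 h replicate 3) and -0.28 to 0.039 for Insr ILMN_2780352 (above 0 without 4 h replicate 2). Sstr5 ILMN_1232317 ranged from 0.15 to 0.90 over all settings, with adjusted p from 0.0840 to 0.999. Leaving out single arrays also gave -0.20 to -0.0044 for Igf1r ILMN_1249824, -0.56 to -0.069 for Stat3, 0.070 (without 4 h replicate 3) to 0.22 for Leprotl1, -0.22 (without 16 h replicate 3) to -0.064 (without 16 h replicate 2) for Adcy6, 0.082 (without 4 h replicate 1) to 0.25 (without 4 h replicate 2) for Gnao1 and -0.28 (without 4 h replicate 3) to -0.11 (without 16 h replicate 1) for Arrb2. Without background correction Galr3 was -1.02, Itpr2 -0.40, Gal -0.47, Igfbp3 0.46 and Gipr -0.15.

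With the same shared shift in the values, calls were gained with no between-array normalization and median scaling by Sstr2 (0.98 and 0.89), Gcg (0.71 and 0.62), Pik3r3 (0.81 and 0.72), Igfbp3 (0.68 and 0.59), Rgs4 (0.72 and 0.64) and Insl5 (1.2 and 1.11), and by Adcy2 in the first setting (0.67). Averaging all probes of a gene moved Sstr5 to 0.15, Igf1r to -0.012, Sstr2 to 0.24, Rictor to -0.0094, Itpr2 to -0.0054, Gnao1 to 0.046, Adcy6 to -0.082, Stat3 to -0.21 and Igfbp3 to 0.18.

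The labels do not say whether the replicate numbers pair the samples. Same-numbered samples had deviations correlated at 0.25, 0.17 and -0.49, which cannot settle it, since differently numbered samples were not compared. With the replicate block 0 probes were called higher and 0 lower, with 2489 at an unadjusted p under 0.05.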
